A study of Petunia x hybrida with 9 samples.

Results

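Loci named after circadian clock genes and CONSTANS-like genes were followed in evening corollas of Petunia x hybrida cultivar Mitchell, a white, night-scented petunia. A locus was a member when the name of its closest tomato protein held late elongated, circadian, pseudo response regulator, gigantea, early flowering, timing of CAB, ZEITLUPE, FKF1, APRR or CONSTANS. This gave 212 of 94534 loci, which came from 80 assembled genes and matched 45 tomato proteins, and 184 of them, from 61 assembled genes, had a mean of at least 1 FPKM (fragments per kilobase of locus, scaled to the size of the library) over all libraries and were tested. An assembled gene was often split into many loci that share reads, so the loci are not independent and counts are also given by assembled gene. Names are borrowed from tomato, at a median protein identity of 76.46% (46.19% to 100%), and do not identify the petunia gene.

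The samples were corollas, at least 8 a sample, taken at 20 h on day 2 after anthesis, under lights that came on at 6 in the morning and went off at 9 in the evening. Groups A4 and A9 were labelled overexpressors of PhADT, a petunia arogenate dehydratase that forms phenylalanine, carried as a site-directed mutant, and the group WT was labelled wild type, with 3 libraries each. The label R353A for the mutation stands on all libraries, wild type included. The labels name no promoter for the transgene and do not say whether a line is a single transformant, whether corollas of several plants were pooled or whether the replicates were separate plants. All flowers were harvested at a single clock time, so a level that differs here can be a shifted phase, an altered amplitude or a changed mean, which cannot be told apart.

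The plant clock, as worked out in Arabidopsis, is a loop of repressors that take turns through the day. The MYB-like proteins LATE ELONGATED HYPOCOTYL (LHY) and CCA1 act at dawn, the pseudo-response regulators PRR9, PRR7, PRR5 and TOC1 follow in that order from morning to night, and GIGANTEA and the evening complex with EARLY FLOWERING 3 act late in the day. CONSTANS-like proteins carry B-box zinc fingers and a CCT domain, which the pseudo-response regulators also carry, and some link day length to flowering. In petunia flowers LHY restrains scent genes early in the day, and scent is released at night.

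The estimated depth, read from the steps of low FPKM values, was between 30600000 and 43100000 fragments a library. Correlations of log2(FPKM + 1) between libraries were 0.971 to 0.985 within a group and 0.880 to 0.942 across groups. Of 15 tested dehydratase loci, 5 were higher in A9, XLOC_018765 the most, at 108, 80.8 and 97.0 FPKM in A9 and at most 0.0389 FPKM in WT. In the A4 group 0 of the 15 were higher by limma (0 at an unadjusted p under 0.05) and 7 were lower, so the expression values do not bear out the label of A4, and every direction given for the A4-labelled libraries rests on that label. The word list for corolla markers matched no locus, so the tissue could not be checked that way. Green-tissue markers (81 loci) summed to 607.9 to 988.9 FPKM in the A4-labelled libraries, 552.3 to 852.2 FPKM in A9 and 1128 to 1430 FPKM in WT. Pollen and anther markers (38 loci) summed to 129 to 152 FPKM, 155 to 183 FPKM and 163 to 226 FPKM in the same order, and the 2 pistil loci to at most 1.42 FPKM. The part of these tissues in the results below was not tested, and in whole corollas fewer cells of a type and less RNA per cell cannot be told apart.

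More clock and CONSTANS-like loci were lower than higher in both lines. Against WT, the A4-labelled libraries had 68 of the 184 loci lower and 18 higher at an adjusted p under 0.05 (limma on log2(FPKM + 1), adjusted by Benjamini-Hochberg over all 53284 loci tested). That is 37% lower and 9.78% higher, where 16.6% of all loci tested were called lower, 15.6% higher and 32.1% in either direction. In A9, 42 members were lower and 7 higher, or 22.8% and 3.8%, against 10.3% and 8.98% of all loci and 19.2% in either direction. The median log2 change of the 184 loci was -0.21 for the A4-labelled libraries and -0.12 for A9, beside -0.04 and -0.01 over all loci tested. By assembled gene, 23 of 61 held a lower and 13 a higher locus in the A4-labelled libraries, and 15 and 5 in A9, where 18.3% and 20.2% of all assembled genes tested did so for the A4 group and 12.1% and 12.9% for A9. When the FPKM of each assembled gene were summed before the fit, an alternative chosen after seeing the data, 21 of 63 genes were lower and 12 higher in the A4-labelled libraries (33.3% and 19%, beside 16% and 19% of all assembled genes), so the share of higher genes was that of all genes. In A9 the same sums gave 13 lower and 5 higher (20.6% and 7.94%, beside 10.7% and 11.9%). Every A4-labelled library lay below every WT library at 94 of the 184 loci (51.1%) and above at 22 (12%), where 26.3% and 21.6% of all loci tested did so. For A9 these numbers were 72 (39.1%) and 18 (9.78%), beside 20.8% and 17.5%. Through a single group alone, 12 members reached the 1 FPKM minimum, 5 through A4 and 7 through WT, and among the other 172 there were 61 lower and 13 higher in the A4 group and 37 and 7 in A9. With no filter on low values, 67 of all 212 members were lower and 27 higher in the A4-labelled libraries (31.6% and 12.7%, beside 11.7% and 15.4% of all 94534 loci), and 42 and 7 in A9 (19.8% and 3.3%, beside 7.7% and 7.82%). At a minimum mean of 5 FPKM, 41 of 87 members were lower and 5 higher in the A4 group, beside 4771 and 3020 of all 20297 loci. In A9 these were 12 and 4, beside 2809 and 2024, so the lower share of A9 was there that of all loci. The 86 calls for the A4 group fell to 53 without WT replicate 3 and to 57 without WT replicate 1, and its 68 lower loci to 38, 39 and 42 without WT replicate 3, WT replicate 1 and A4 replicate 3. Calls over all loci fell too, from 32.1% to 23.8% without WT replicate 3 and 24.9% without WT replicate 1. Lower calls over all 53284 loci went from 8826 to 6022, 6684 and 6387 in the same order. The 49 calls for A9 fell to 26 without WT replicate 3 (25 lower) and 31 without A9 replicate 3. The share of all loci called for A9 fell from 19.2% to 12.4% and 12.8% in these fits. Without WT replicate 3, 3279 of all 53284 loci were lower. The 7 higher loci of A9 fell to 1 without WT replicate 3, to 2 without WT replicate 2 or A9 replicate 3 and to 3 without A9 replicate 1 or 2. Many single calls of small size rest on such libraries: 33 of the 68 lower and 15 of the 18 higher loci were called under every alternative run on loci for the A4 group, and 23 of 42 and 1 of 7 for A9. Both comparisons share the WT libraries. The summed green-tissue markers given above were also lower in both lines than in WT, and their part in these counts was not tested.

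**Figure D1:**
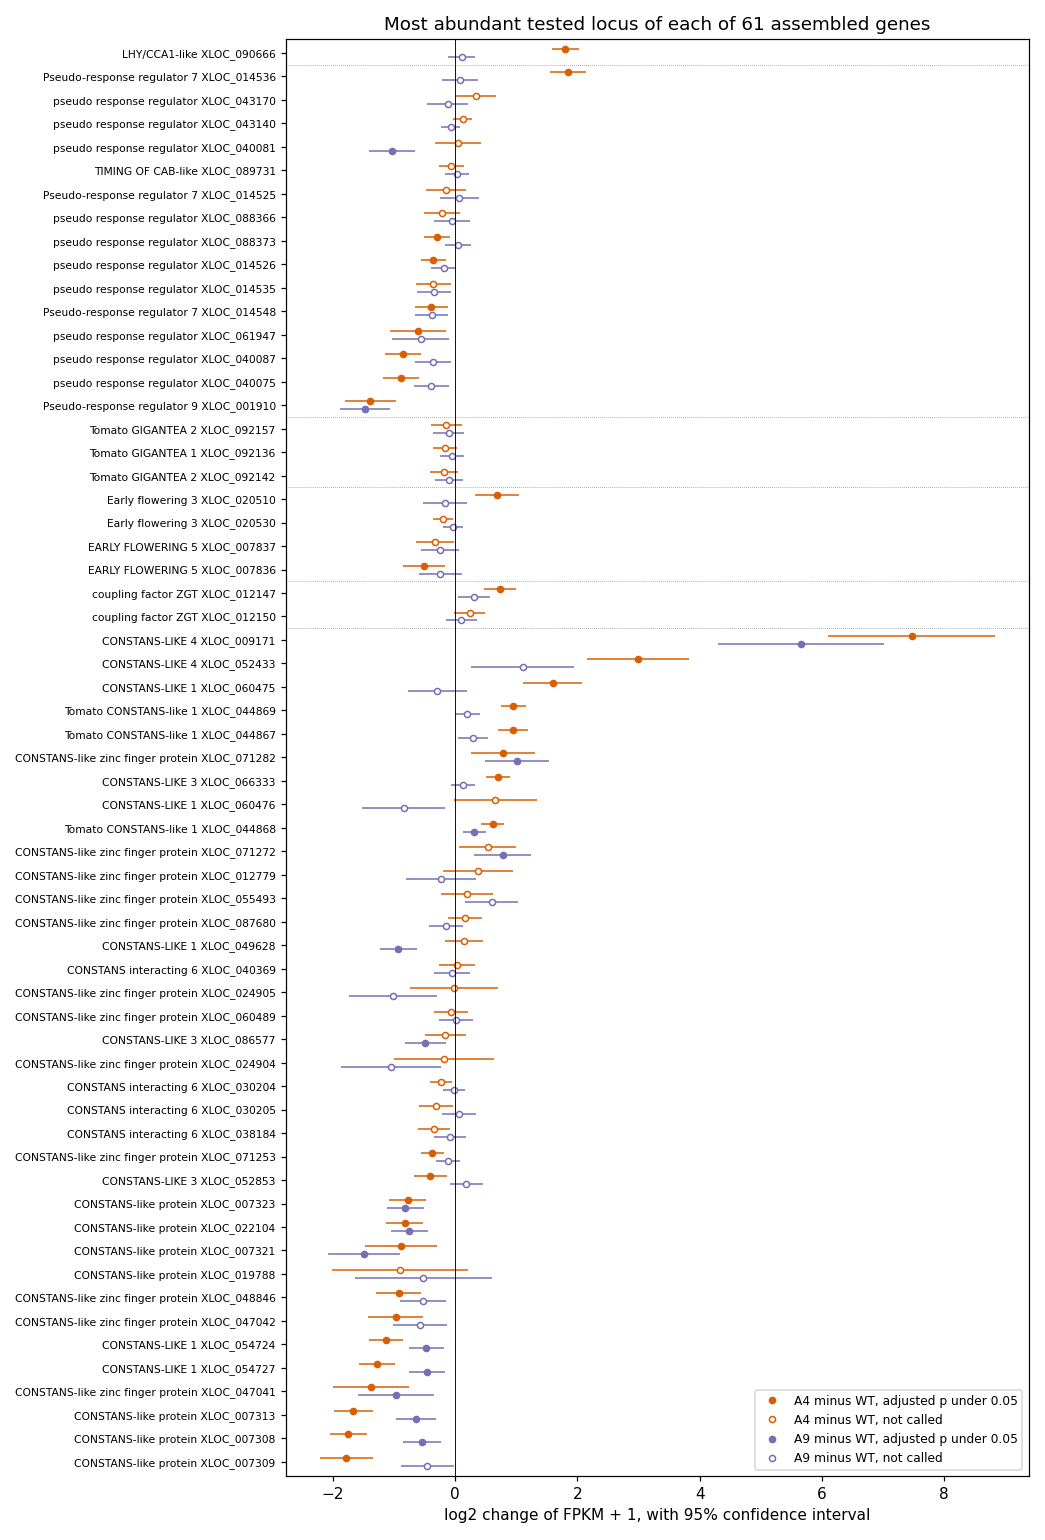
Log2 change of FPKM + 1 against WT (horizontal axis, with 95% confidence interval) of the most abundant tested locus of each of 61 assembled genes, the A4-labelled libraries in orange above A9 in purple, filled where the adjusted p was under 0.05. Fills are from the fit with the 1 FPKM minimum, which the LHY and PRR9 loci and XLOC_014536, among others, passed through a single group alone. Rows run by role from LHY through the response regulators, GIGANTEA, early flowering and coupling factor loci to the CONSTANS-like loci, where CONSTANS-LIKE 4 XLOC_009171 stands far to the right at 7.46 and 5.65 and XLOC_007308 near the bottom at -1.75 and -0.54.

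The dawn repressor LHY was higher in the A4-labelled libraries than in A9 or WT. Locus XLOC_090666, named late elongated hypocotyl and aligned over 770 residues of the tomato protein, stood at 2.57, 3.40 and 3.38 FPKM in the A4-labelled libraries, at 0.187, 0.243 and 0.373 FPKM in A9 and at 0.141, 0.177 and 0.210 FPKM in WT. The A4 group lay above all other libraries with a wide gap, while A9 and WT overlapped. The mean was 17.7 times that of WT, a log2 change of 1.80, and 11.6 times that of A9, a log2 difference of 1.70. A9 differed from WT by 0.11 (95% interval -0.12 to 0.33). Behind these values stood an estimated 286 to 388 fragments in the A4-labelled libraries and 12 to 18 in WT, a low level beside the other clock genes. The log2(FPKM + 1) scale understates the change of so low a locus. All 5 LHY loci belong to the same assembled gene, and the 3 that passed the 1 FPKM minimum did so through the A4-labelled libraries alone, so their tests in that fit are not used here. With no filter on low values, all 5 were called higher in the A4 group than in WT, by 0.78 to 1.80, and than in A9, by 0.72 to 1.72, and 0 were called in A9 by limma, also 0 at an unadjusted p under 0.05 (changes of -0.05 to 0.11). In that fit the adjusted p of XLOC_090666 was 2.65e-06 against WT, 8.33e-06 against A9 and 0.521 for A9 with WT. Of the 2 loci under the minimum, both chosen after their values were seen, XLOC_090667 had 1.90, 2.71 and 2.89 FPKM in the A4-labelled libraries, 0.0921, 0.133 and 0.201 FPKM in A9 and 0.221, 0.153 and 0.162 FPKM in WT. The short locus XLOC_090668 was at 0.653 to 0.778 FPKM in the A4-labelled libraries, at most 0.0822 FPKM in A9 and listed at 0 in each WT library.

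**Figure D2:**
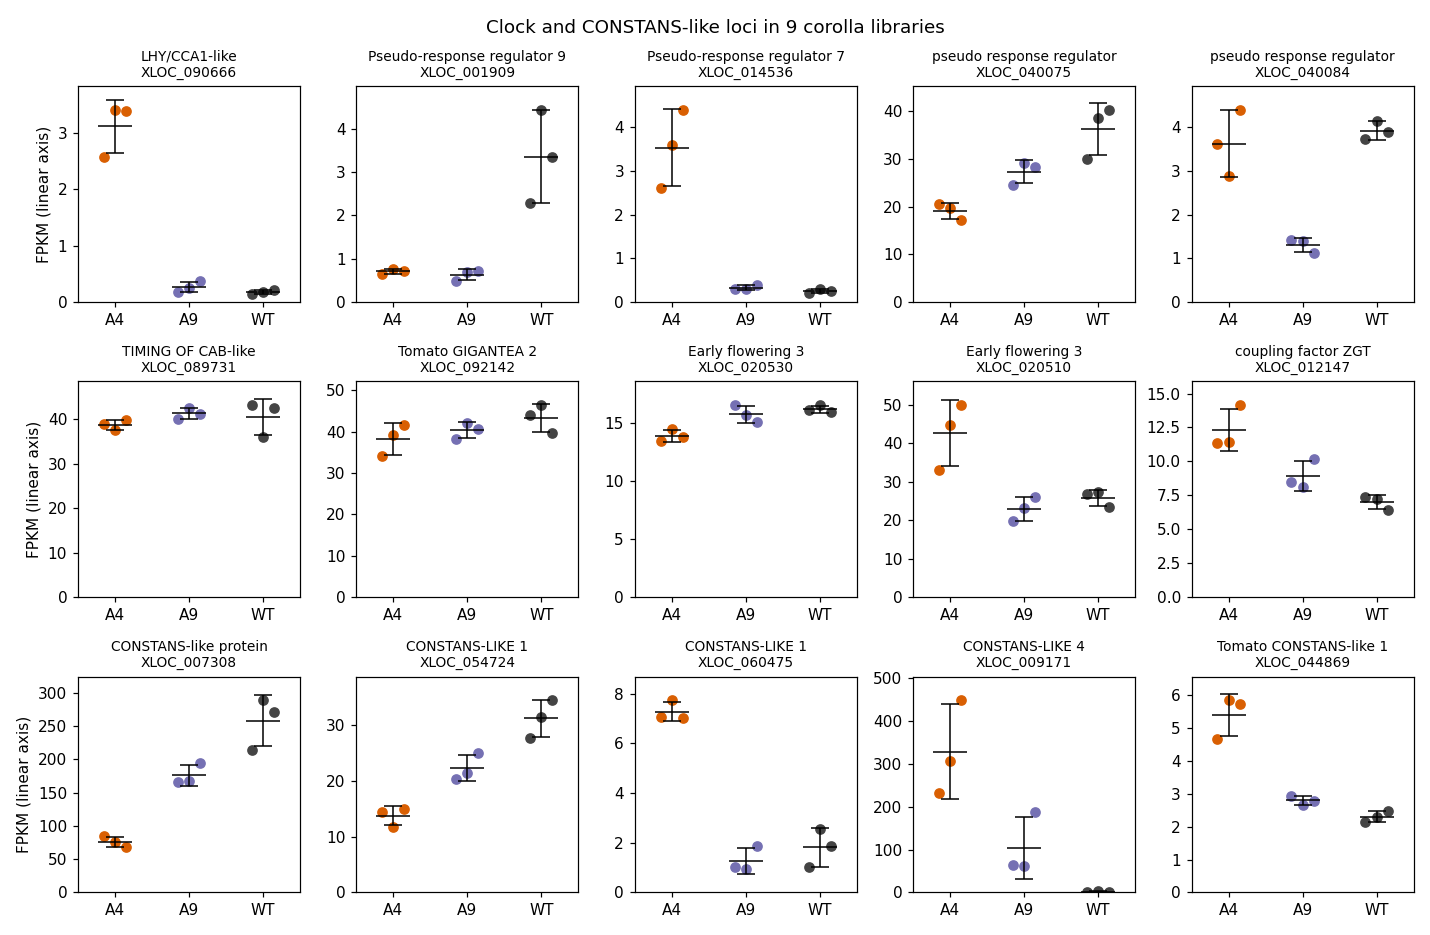
FPKM on linear axes (vertical) of 15 loci in the 9 corolla libraries, a point per library, with the group mean and SD as bars; A4 (orange) stands left of A9 (purple) and WT (grey). LHY XLOC_090666 and PRR7 XLOC_014536 are high in the 3 A4-labelled libraries alone, PRR9 XLOC_001909 is low in both lines, TIMING OF CAB and GIGANTEA overlap across groups, and XLOC_007308 is lowest in the A4-labelled libraries, with A9 in the middle and WT highest.

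The pseudo-response regulators (69 loci, 65 tested, of 15 tested assembled genes) held most of the lower loci among the core clock genes. In the A4-labelled libraries, 36 of 65 were lower and 3 higher, or 55.4% and 4.62%, where 16.6% and 15.6% of all loci were called. In A9 28 were lower and 0 higher, also 0 by limma's unadjusted p under 0.05, or 43.1% and 0%, beside 10.3% and 8.98% of all loci. Several genes gave many of these loci, and by assembled gene 7 of 15 held a lower and 2 a higher locus in the A4 group, and 5 and 0 in A9. Of all assembled genes tested, 18.3% and 20.2% did so for the A4 group and 12.1% and 12.9% for A9. Through WT alone, 6 of the 65 reached the minimum, and 2 through A4 alone. In the A4 group all these 6 were called lower and these 2 higher, and the 5 PRR9 loci among the 6 were called lower in A9 too. The filter thus set a part of the counts above, and the family was not recounted without these loci. The members of the family did not move alike.

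PRR9, the first regulator to act after dawn in Arabidopsis, was lower in both lines. XLOC_001909 had 0.648, 0.764 and 0.714 FPKM in the A4-labelled libraries, 0.483, 0.686 and 0.726 FPKM in A9 and 2.29, 4.43 and 3.34 FPKM in WT. The lines overlapped each other and lay below every WT library, whose values spread the most. The WT mean was 4.74 times that of the A4 group and 5.31 times that of A9, with log2 changes of -1.32 and -1.39 (SE 0.16 each). Between the lines the difference was 0.07 (95% interval -0.29 to 0.43). The 5 loci of this assembled gene that passed the minimum did so through WT alone. With no filter on low values, all 7 of its loci were called lower in both lines, by -1.39 to -1.14 in the A4 group and -1.48 to -1.11 in A9, and the adjusted p of XLOC_001909 was 0.000347 and 0.000446.

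PRR7, which follows PRR9 in Arabidopsis, gave opposite directions at different loci. XLOC_014536 was at 2.62, 3.59 and 4.38 FPKM in the A4-labelled libraries, at 0.289, 0.302 and 0.389 FPKM in A9 and at 0.212, 0.290 and 0.249 FPKM in WT. As at LHY, the A4 group stood apart, and A9 and WT lay close together. The locus reached the minimum through the A4-labelled libraries alone, so its tests are given with no filter on low values. Its log2 change was 1.84 in the A4-labelled libraries (SE 0.13, adjusted p = 1.38e-05) and 0.09 in A9 (adjusted p = 0.713), and the lines differed by 1.75 (adjusted p = 4.30e-05). Its identity to tomato PRR7, 46.2% over 485 residues, is the lowest of all members. A further assembled gene named PRR7, with 17 loci, was slightly lower: 15 of its loci were called lower in the A4-labelled libraries, by -0.40 to -0.19 over all 17, and 11 in A9, by -0.44 to -0.21. Its most abundant locus, XLOC_014548, chosen after its values were seen, had 1.92, 1.62 and 1.75 FPKM in the A4-labelled libraries, 2.03, 1.73 and 1.60 FPKM in A9 and 2.85, 2.02 and 3.08 FPKM in WT. The A4-labelled libraries lay below every WT library, while A9 overlapped both groups. Summed over this gene the log2 change was -0.47 (SE 0.09, adjusted p = 0.00456) in the A4 group and -0.48 (SE 0.09, adjusted p = 0.00651) in A9.

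Response regulators without a number in their tomato name fell into sets with distinct patterns. XLOC_040075, among the most abundant, was at 20.5, 19.7 and 17.2 FPKM in the A4-labelled libraries, 24.5, 29.1 and 28.3 FPKM in A9 and 30.0, 38.5 and 40.2 FPKM in WT. The 3 groups did not overlap and A9 lay in the middle. The log2 change was -0.88 in the A4-labelled libraries (SE 0.13, adjusted p = 0.00111) and -0.39 in A9 (SE 0.13, adjusted p = 0.066), and the lines differed by -0.49 (adjusted p = 0.0307). The A9 change passed without WT replicate 1 (adjusted p = 0.0248) and when the loci of the gene were summed (adjusted p = 0.0402). The difference between the lines missed the threshold without A4 replicate 2 or 3 or A9 replicate 2 or 3, with adjusted p of 0.0712, 0.102, 0.078 and 0.0862. All 4 loci of this gene were called lower in the A4 group, and 2 in A9.

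The set of XLOC_040084, 10 loci of another assembled gene, was lower in A9 than in both other groups. XLOC_040084 itself was at 3.61, 2.87 and 4.39 FPKM in the A4-labelled libraries, 1.42, 1.39 and 1.13 FPKM in A9 and 3.72, 4.14 and 3.90 FPKM in WT. A9 lay below all other libraries, and the A4 group spanned the WT values. A9 changed by -1.09 on the log2 scale (SE 0.12, adjusted p = 0.000367), the A4 group by -0.10 (95% interval -0.37 to 0.17), and the lines differed by 0.99 (adjusted p = 0.00104). Of the 10 loci, 9 were lower in A9, and all 10 were higher in the A4-labelled libraries than in A9. Within this gene XLOC_040080 stood apart, at 5.71, 5.25 and 6.82 FPKM in the A4-labelled libraries, 0.628, 0.812 and 0.341 FPKM in A9 and 1.04, 0.978 and 0.987 FPKM in WT. It too reached the minimum through the A4-labelled libraries alone. With no filter on low values it was higher in the A4 group by 1.78 (SE 0.12, adjusted p = 1.30e-05) and differed between the lines by 2.12 (adjusted p = 9.08e-06), but it aligned to the tomato protein over only 38 residues. Of the 10 loci, 2 were called higher in the A4 group than in WT, this locus among them, and 0 lower by limma (0 unadjusted). Summed over the assembled gene, the A4 change was 0.30 (adjusted p = 0.187), so the call was lost. XLOC_061950, of a further gene and aligned over 20 residues, had 2.21, 2.74 and 2.83 FPKM in the A4-labelled libraries, 1.12, 1.49 and 0.829 FPKM in A9 and 2.97, 3.78 and 2.57 FPKM in WT. It was lower in A9 (log2 change -0.94, adjusted p = 0.00252). Over the 3 tested loci of its gene the line difference ran from -0.38 to 0.75, and XLOC_061950 alone was called. Summed over that gene, the line difference was 0.18 and was not called. The summed A4 change was -0.58 (adjusted p = 0.0285), where that of XLOC_061950 alone, -0.19, was not called. When all loci were summed by their tomato protein, a coarser unit that merges these sets, the sign of the A4 change of XLOC_014536 and XLOC_040080 and of the line difference of XLOC_040080, XLOC_040084 and XLOC_061950 turned.

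TOC1, the regulator of the evening and night, showed no change that passed. XLOC_089731, named timing of CAB expression, had 39.0, 37.5 and 39.7 FPKM in the A4-labelled libraries, 40.2, 42.6 and 41.3 FPKM in A9 and 43.1, 36.0 and 42.6 FPKM in WT. WT spanned nearly the whole range of both lines. The log2 change was -0.06 in the A4 group (95% interval -0.26 to 0.14, adjusted p = 0.644) and 0.03 in A9 (95% interval -0.17 to 0.23, adjusted p = 0.848). Of the 4 loci of this gene, 0 were called in either line by limma, and 0 had an unadjusted p under 0.05. XLOC_088373, a short regulator locus at 30.7 ± 3.15 FPKM in the A4-labelled libraries, 38.8 ± 1.69 FPKM in A9 and 37.7 ± 1.80 FPKM in WT (SD, n = 3 each), was called lower in the A4 group (-0.29, adjusted p = 0.0404), a call lost in 10 of 17 alternatives, with adjusted p up to 0.128. A gene of 9 loci led by XLOC_014526, chosen after its values were seen, was lower in the A4 group at 8 loci and at 0 in A9 (6 by limma's unadjusted p under 0.05), but the difference between the lines was called at 0 of the 9 (3 unadjusted).

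GIGANTEA, a large clock protein that peaks toward dusk in Arabidopsis and joins blue light F-box proteins in releasing CONSTANS from repression, gave few calls. Of 21 tested loci of 3 assembled genes, 1 was lower in the A4-labelled libraries and 0 were called in A9 by limma, with 11 and 0 at an unadjusted p under 0.05. Over all loci tested, 16.6% were called lower and 15.6% higher for the A4 group, and 10.3% and 8.98% for A9. A single assembled gene gave 19 of the 21 loci, which are not independent. The log2 changes of the 21 ran from -0.29 to -0.13 in the A4 group and from -0.11 to 0.08 in A9. XLOC_092142 had 34.1, 39.0 and 41.5 FPKM in the A4-labelled libraries, 38.3, 42.1 and 40.6 FPKM in A9 and 44.1, 46.3 and 39.6 FPKM in WT, and the 3 groups overlapped. Its change was -0.18 in the A4 group (95% interval -0.41 to 0.05) and -0.10 in A9 (95% interval -0.33 to 0.13). The called locus, XLOC_092154, aligned over 940 residues of tomato GIGANTEA 1 and was at 10.1 ± 1.24 FPKM in the A4-labelled libraries, 11.9 ± 0.443 FPKM in A9 and 12.5 ± 0.217 FPKM in WT (SD, n = 3 each). That call (log2 change -0.29, adjusted p = 0.041) was lost in 11 of 17 alternatives, with adjusted p up to 0.11. XLOC_092139 was called lower in the A4 group at a minimum mean of 5 FPKM (adjusted p = 0.0499) and without A4 replicate 2 (adjusted p = 0.0272). Summed over the tomato protein of XLOC_092136, GIGANTEA 1, the A4 change was -0.23 (adjusted p = 0.0408). Summed over the assembled gene of XLOC_092154 it was -0.22 (adjusted p = 0.0648).

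EARLY FLOWERING 3, a scaffold of the evening complex, was represented by a long gene and a short contig that behaved differently. Their closest tomato proteins are different proteins of that name, so they need not be parts of the same gene. XLOC_020530, aligned over 647 residues, was at 13.5, 14.5 and 13.8 FPKM in the A4-labelled libraries, 16.5, 15.7 and 15.1 FPKM in A9 and 16.1, 16.5 and 15.9 FPKM in WT. The A4 group lay slightly below all other libraries (log2 change -0.21, SE 0.07, adjusted p = 0.0559), and A9 overlapped WT. That change passed at a minimum mean of 5 FPKM (adjusted p = 0.0396) and with no variance trend (adjusted p = 0.0473). Its assembled gene of 7 loci gave 0 calls against WT in either line by limma, with 2 lower in the A4 group and 0 in A9 at an unadjusted p under 0.05. Between the lines XLOC_020529 was called lower in the A4-labelled libraries than in A9 (log2 difference -0.29) with the replicate number as a block (adjusted p = 0.0462), at a minimum mean of 5 FPKM (adjusted p = 0.0411) and with no variance trend (adjusted p = 0.0468), and XLOC_020532 at that minimum (-0.30, adjusted p = 0.0467). XLOC_020510, a contig of 646 bases from another assembled gene, was at 33.1, 44.8 and 49.9 FPKM in the A4-labelled libraries, 19.8, 23.2 and 26.0 FPKM in A9 and 26.7, 27.4 and 23.4 FPKM in WT. Here the A4 group lay above every other library. The log2 change was 0.68 in the A4 group (SE 0.16, adjusted p = 0.0112) and -0.17 in A9 (95% interval -0.53 to 0.19), and the lines differed by 0.85 (adjusted p = 0.00846). EARLY FLOWERING 5, a nuclear repressor of flowering in Arabidopsis that shares only the words of the name, was at 15.9 ± 3.66 FPKM in the A4-labelled libraries, 19.1 ± 2.55 FPKM in A9 and 22.6 ± 0.200 FPKM in WT at XLOC_007836 (SD, n = 3 each). Its lower call in the A4 group (-0.51, adjusted p = 0.0341) was lost in 7 of 17 alternatives, with adjusted p up to 0.107.

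ZGT, a name first given to a tobacco protein described as coupling the clock to its output genes, was higher in the A4-labelled libraries. XLOC_012147 was at 11.4, 11.5 and 14.1 FPKM in the A4-labelled libraries, 8.51, 8.12 and 10.1 FPKM in A9 and 7.40, 7.20 and 6.41 FPKM in WT. The 3 groups did not overlap, with A9 again in the middle. The A4 group was higher than WT by 0.73 (SE 0.11, adjusted p = 0.0016). The change in A9 was 0.31 (95% interval 0.05 to 0.57, adjusted p = 0.0941), and the lines differed by 0.42 (adjusted p = 0.0346), a call lost in 6 of 17 alternatives, with adjusted p up to 0.104. Of the 6 tested ZGT loci, 3 were called higher in the A4 group and 0 in A9 by limma (5 and 1 at an unadjusted p under 0.05). Of all loci tested, 15.6% and 8.98% were called higher. All 3 belong to a single assembled gene, which gave 5 of the 6 loci. XLOC_012150, of the other tested gene, changed by 0.24 (95% interval -0.02 to 0.49) in the A4 group. A locus of a further gene, XLOC_033937, stayed below the 1 FPKM minimum in every library, at 0.345 to 0.966 FPKM in the A4-labelled libraries, 0.292 to 0.464 FPKM in A9 and 0.422 to 0.499 FPKM in WT. No locus was named ZEITLUPE, the blue light receptor F-box protein of the clock.

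**Figure D3:**
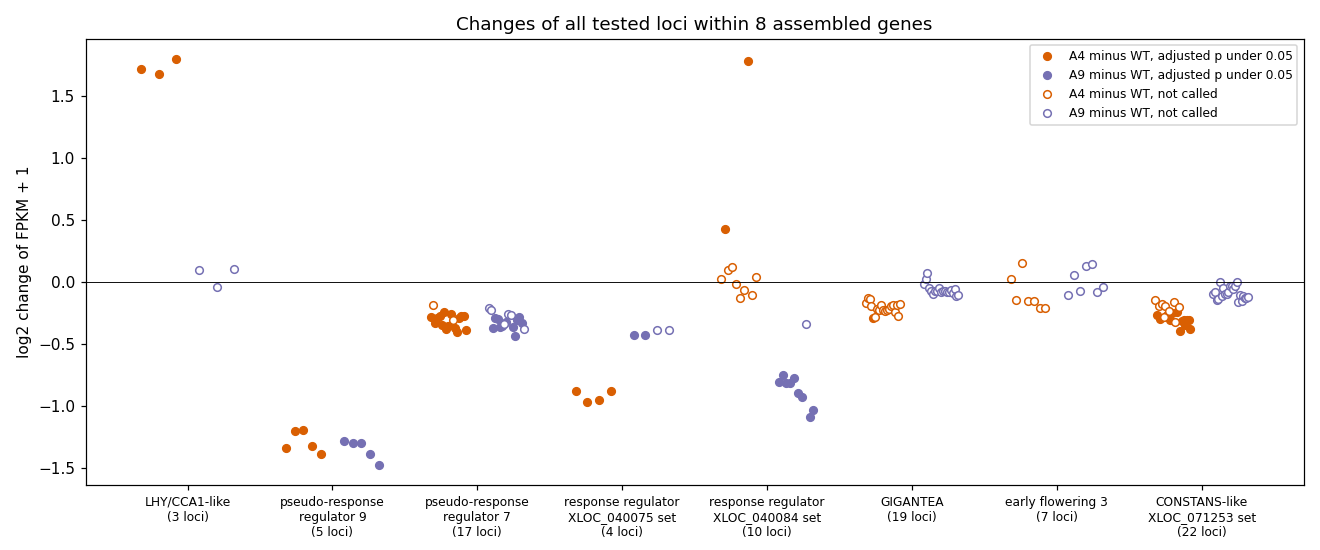
Log2 change of FPKM + 1 against WT (vertical axis) of every tested locus within 8 assembled genes, the A4-labelled libraries in orange at the left and A9 in purple at the right of each gene, filled where the adjusted p was under 0.05. Fills are from the fit with the 1 FPKM minimum, which the LHY loci, the PRR9 loci and XLOC_040080 passed through a single group alone. Loci of a gene lie close together except in the XLOC_040084 set, where XLOC_040080 stands at 1.78 in the A4 group; the LHY gene is high in the A4 group, and the PRR9 gene is low in both lines.

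CONSTANS-like loci were the largest group (99 loci, 79 tested, 36 tested assembled genes) and held both higher and lower loci. In the A4-labelled libraries, 30 were lower and 8 higher, or 38% and 10.1%, beside 16.6% and 15.6% of all loci. In A9 14 were lower and 7 higher, or 17.7% and 8.86%, beside 10.3% and 8.98%, so the share of higher loci in A9 was that of all loci. By assembled gene, 14 of 36 held a lower and 8 a higher locus in the A4 group, and 10 and 5 in A9. Of all assembled genes tested, 18.3% and 20.2% did so for the A4 group and 12.1% and 12.9% for A9. The shares of genes with a higher locus were thus near those of all genes. Between the lines, 10 loci were higher and 12 lower in the A4-labelled libraries than in A9, or 12.7% and 15.2%, where 9.91% and 8.13% of all loci were called. They are given below by their tomato names, and the shares of all loci given here stand beside those counts too.

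Tested loci named CONSTANS-like protein without a number were mostly lower. Of 7, each its own assembled gene but several from a single contig cluster, 6 were lower in the A4-labelled libraries and 5 in A9. By limma 0 were higher in either, also at an unadjusted p under 0.05. XLOC_038345 and XLOC_038346 of that name, under the minimum and chosen after their values were seen, had higher means in the lines. These were 1.07 and 1.11 FPKM in the A4-labelled libraries, 1.13 and 0.997 FPKM in A9 and 0.577 and 0.447 FPKM in WT. XLOC_007308, aligned over 400 residues and the most abundant member in WT, was at 84.1, 75.2 and 68.1 FPKM in the A4-labelled libraries, 166, 167 and 194 FPKM in A9 and 215, 288 and 270 FPKM in WT. The groups were well apart, with A9 in the middle. The log2 change was -1.75 in the A4 group (SE 0.13, adjusted p = 2.82e-05) and -0.54 in A9 (SE 0.13, adjusted p = 0.0229), and the lines differed by -1.20 (adjusted p = 0.000672). The A9 call was lost without A9 replicate 1 or 2 or WT replicate 2 or 3, with adjusted p of 0.067, 0.0624, 0.0738 and 0.0787.

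XLOC_007309 and XLOC_007313 match the same tomato protein as XLOC_007308 and come from the same contig cluster, so they are not independent of it. XLOC_007313 was at 19.4, 15.7 and 17.8 FPKM in the A4-labelled libraries, 32.3, 35.4 and 43.3 FPKM in A9 and 50.5, 67.0 and 56.8 FPKM in WT, in the same order with no overlap, with changes of -1.66 (adjusted p = 5.55e-05) and -0.64 (adjusted p = 0.0153) and a line difference of -1.02 (adjusted p = 0.00215). XLOC_007309 was at 38.4, 40.0 and 40.0 FPKM in the A4-labelled libraries, 78.2, 104 and 124 FPKM in A9 and 107, 159 and 153 FPKM in WT. It is 372 bases long, not far above the 275 to 290 bases that the depth estimate subtracts, so its level is uncertain. Its change was -1.78 in the A4 group (adjusted p = 0.000199) and -0.46 in A9 (adjusted p = 0.131), and the A9 change passed with the replicate number as a block (adjusted p = 0.0463).

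XLOC_007323, of the same cluster but closest to another tomato protein, was lower in both lines alike. It was at 10.2, 13.1 and 13.4 FPKM in the A4-labelled libraries, 12.5, 12.7 and 10.4 FPKM in A9 and 22.8, 23.1 and 18.8 FPKM in WT. The lines overlapped each other and lay below WT, with changes of -0.78 (SE 0.13, adjusted p = 0.00254) and -0.81 (SE 0.13, adjusted p = 0.00348) and a line difference of 0.04 (95% interval -0.27 to 0.34). XLOC_022104, which matches that same tomato protein and was chosen after its values were seen, had 16.3 ± 1.62 FPKM in the A4-labelled libraries, 17.2 ± 2.29 FPKM in A9 and 29.7 ± 4.18 FPKM in WT (SD, n = 3 each), with changes of -0.82 and -0.75 (adjusted p = 0.00204 and 0.00563).

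CONSTANS-LIKE 4 gave the largest change of all members in both lines, and it was upward. XLOC_009171, aligned over 113 residues at 59.3% identity, was at 231, 307 and 448 FPKM in the A4-labelled libraries, 62.9, 60.7 and 187 FPKM in A9 and 0.0982, 3.43 and 0.197 FPKM in WT. Every A4-labelled library lay above every A9 library, and both lines lay far above WT, where replicate 2 had an estimated 111 fragments and replicates 1 and 3 had 3 and 6. Ordered by the most abundant locus of each of the 80 assembled genes, it ranked 1 in the A4-labelled libraries, 2 in A9 and 58 in WT. The log2 change was 7.46 in the A4 group (SE 0.60, adjusted p = 3.72e-05) and 5.65 in A9 (SE 0.60, adjusted p = 0.000306). At a pseudocount of 0.1 these were 9.06 and 7.24, on the linear scale 3.03 and 3.002 times as large, and without WT replicate 2 they were 8.11 and 6.30, 1.57 times as large, so the size of the change is uncertain. The lines differed by 1.81 (SE 0.60, adjusted p = 0.0688). That difference passed in 3 of 19 alternatives, without WT replicate 2, without A9 replicate 3 and after quantile normalization, and its adjusted p ran from 0.0295 to 0.233, the highest at a pseudocount of 0.1. A second locus of that name, XLOC_052433, closest to another tomato protein and chosen after its values were seen, had 10.3, 10.6 and 8.92 FPKM in the A4-labelled libraries, 0.989, 1.62 and 3.99 FPKM in A9 and 0, 1.26 and 0.160 FPKM in WT. It was higher in the A4 group than in WT (2.99, SE 0.37, adjusted p = 0.000452) and than in A9 (1.88, adjusted p = 0.0103), and the line difference missed the threshold at a pseudocount of 0.1 (adjusted p = 0.091). Its change in A9 was 1.10 (SE 0.37, adjusted p = 0.0686).

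Loci named after tomato CONSTANS-like 1, written so in the tomato annotation, were higher in the A4-labelled libraries. All 3 were called, with changes of 0.62 to 0.95, and 1 of the 3 was called in A9, with changes of 0.20 to 0.31. XLOC_044869 had 4.68, 5.85 and 5.73 FPKM in the A4-labelled libraries, 2.95, 2.66 and 2.79 FPKM in A9 and 2.13, 2.31 and 2.48 FPKM in WT. The A4 group stood clear of the others and A9 lay just above WT. The change was 0.95 in the A4 group (SE 0.09, adjusted p = 9.86e-05) and 0.20 in A9 (adjusted p = 0.157), and the lines differed by 0.75 (adjusted p = 0.00103).

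Zinc finger proteins CONSTANS-LIKE 1 were mixed. Of 9 loci, 4 were lower and 1 higher in the A4-labelled libraries, 7 were lower and 0 higher in A9 (0 also at limma's unadjusted p under 0.05), and all 9 differed between the lines, 5 higher and 4 lower in the A4-labelled libraries. XLOC_060475 was at 7.07, 7.72 and 7.02 FPKM in the A4-labelled libraries, 1.01, 0.933 and 1.87 FPKM in A9 and 1.03, 2.57 and 1.85 FPKM in WT. A9 and WT overlapped, and the A4 group lay above both, by 1.59 over WT (SE 0.21, adjusted p = 0.000688) and 1.89 over A9 (adjusted p = 0.000715). XLOC_060476, a longer contig that matches the same tomato protein and was chosen after its values were seen, had 49.3, 62.4 and 65.0 FPKM in the A4-labelled libraries, 15.8, 17.3 and 29.9 FPKM in A9 and 23.8, 49.3 and 42.4 FPKM in WT. WT overlapped A9, its replicate 2 equalled the lowest A4-labelled library to 3 digits, and the difference between the lines alone passed (1.49, adjusted p = 0.0116).

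XLOC_049630 was lower in A9 than in the other groups, at 2.12, 1.89 and 1.51 FPKM in the A4-labelled libraries, 0.875, 0.633 and 0.558 FPKM in A9 and 2.03, 1.85 and 1.74 FPKM in WT. A9 changed by -0.77 (SE 0.10, adjusted p = 0.0013), the A4 group by -0.02 (95% interval -0.26 to 0.21), and the lines differed by 0.75 (adjusted p = 0.00215). Its pattern was that of the response regulator XLOC_040084. XLOC_054724, chosen after its values were seen, was graded like XLOC_007308, at 14.5, 11.8 and 14.95 FPKM in the A4-labelled libraries, 20.5, 21.5 and 24.9 FPKM in A9 and 27.8, 31.5 and 34.5 FPKM in WT, with no overlap. The changes were -1.13 (adjusted p = 0.000227) and -0.47 (adjusted p = 0.0294), and the lines differed by -0.66 (adjusted p = 0.00845). The A9 call was lost without A9 replicate 1 or 2 or WT replicate 2 or 3, with adjusted p up to 0.101.

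The 43 loci named CONSTANS-like zinc finger protein, of 12 assembled genes, were 16 lower and 1 higher in the A4-labelled libraries and 1 lower and 5 higher in A9. Of all loci, 16.6% were called lower and 15.6% higher in the A4 group, and 10.3% and 8.98% in A9. The difference between the lines was called by limma at 0 of the 43, with 5 higher and 13 lower at an unadjusted p under 0.05. A single gene of 22 near-copies led by XLOC_071253, chosen after its values were seen, gave 13 of the 16 lower loci, with changes of -0.40 to -0.14 over the 22, so the count overstates the number of genes. XLOC_071282, chosen after its values were seen, was higher in both lines, at 33.0, 18.4 and 27.3 FPKM in the A4-labelled libraries, 35.8, 26.1 and 29.4 FPKM in A9 and 18.8, 11.8 and 13.6 FPKM in WT. The A4 group overlapped WT by a single library. Its calls (0.78, adjusted p = 0.0311, and 1.01, adjusted p = 0.0169) were lost in 5 and 3 of 17 alternatives, with adjusted p up to 0.0991 and 0.0579. The abundant XLOC_087680, also chosen after its values were seen, had 79.2 ± 14.3 FPKM in the A4-labelled libraries, 63.4 ± 3.45 FPKM in A9 and 70.3 ± 3.53 FPKM in WT (SD, n = 3 each) and was not called. Loci of CONSTANS interacting protein 6, which matched by the word alone, had 1 lower call of 6 in the A4 group and 0 in A9.

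Set side by side, the A4-labelled libraries and A9 differed at 45 of the 184 loci, 27 higher and 18 lower in the A4-labelled libraries, or 14.7% and 9.78%, beside 9.91% and 8.13% of all loci tested and 18% in either direction. Of the 27, 5 reached the 1 FPKM minimum through the A4-labelled libraries alone. Among the 172 that reached it through no single group alone, 22 were higher and 18 lower. With no filter on low values, 33 of 212 members were higher and 20 lower (15.6% and 9.43%), beside 8617 and 5085 of all 94534 loci. The 18 lower loci fell to 10 without A9 replicate 3 and to 11 without A4 replicate 3. Over all 53284 loci the lower calls fell from 4334 to 2283 and 2055. By assembled gene 14 of 61 held a higher and 10 a lower locus, where 13% and 10.8% of all assembled genes tested did. LHY, PRR7 XLOC_014536, ELF3 XLOC_020510 and the CONSTANS-like loci XLOC_044869 and XLOC_060475 were higher in the A4-labelled libraries, and XLOC_007308, XLOC_007309 and XLOC_007313 were lower. PRR9, TOC1 and XLOC_007323 gave differences of 0.07, -0.09 and 0.04, each with a 95% interval within 0.5 of zero, and GIGANTEA gave 0 calls of 21 (1 lower at limma's unadjusted p under 0.05). For the mean of both lines against WT, 67 loci were lower and 19 higher (36.4% and 10.3%, beside 15% and 14.2% of all loci and 29.2% in either direction), a count of 86 that fell to 55 without WT replicate 3. The share of all loci called fell there to 20%. The counts for the mean of both lines keep the members that reached the minimum through a single group alone. Among their 19 higher loci are the 3 tested LHY loci, of which 0 were called in A9, so a call for the mean need not be shared by both lines.

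The levels of the members differed widely. In WT the order by the most abundant locus of each assembled gene began with XLOC_007308 at 258 ± 38.5 FPKM, the short XLOC_007309 at 140 ± 28.4 FPKM, XLOC_087680 at 70.3 ± 3.53 FPKM and XLOC_007313 at 58.1 ± 8.33 FPKM. GIGANTEA XLOC_092142 at 43.3 ± 3.43 FPKM, CONSTANS-LIKE 3 XLOC_052853, chosen after its values were seen, at 41.1 ± 1.25 FPKM, TOC1 XLOC_089731 at 40.6 ± 3.997 FPKM and the regulator XLOC_040075 at 36.2 ± 5.45 FPKM were among those that came next and lay within their spread of each other. Further down, ELF3 XLOC_020530 stood at 16.2 ± 0.297 FPKM, the PRR9 locus XLOC_001909 at 3.36 ± 1.07 FPKM and LHY XLOC_090666 at 0.176 ± 0.0347 FPKM (all SD, n = 3). In the A4-labelled libraries the first place went to XLOC_009171 at 329 ± 110 FPKM, ahead of XLOC_087680 and XLOC_007308. The 28 members that were not tested came from 23 assembled genes, 4 of them were listed at 0 in at least 1 library, and their highest group mean was 2.501 FPKM, that of LHY XLOC_090667 in the A4-labelled libraries.

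Further light and day-length genes were counted by name with the same fit. Their counts stand against the shares of all loci given above, 15.6% higher and 16.6% lower for the A4 group and 8.98% and 10.3% for A9. For A4 with A9 these shares were 9.91% and 8.13%. The lists are short and made of near-copies. Flavin-binding kelch F-box proteins, the name of the FKF1 type that works with GIGANTEA, a list added after the descriptions had been seen, had 6 of 8 loci lower in the A4-labelled libraries and 2 in A9. Among them XLOC_017341 was at 17.9, 19.6 and 19.5 FPKM in the A4-labelled libraries, 23.7, 27.2 and 22.3 FPKM in A9 and 29.8, 30.0 and 30.1 FPKM in WT, graded with no overlap (A4 change -0.63, SE 0.09, adjusted p = 0.000962; A9 change -0.29, adjusted p = 0.0517). HY5, a bZIP factor that promotes light responses and is removed by COP1, had all 4 tested loci of its single gene lower in the A4 group and 1 in A9. XLOC_057640, chosen after its values were seen, was at 5.87, 4.997 and 4.81 FPKM in the A4-labelled libraries, 7.99, 5.36 and 9.19 FPKM in A9 and 7.97, 8.98 and 10.5 FPKM in WT. The list of phytochromes, the red light receptors, had 5 of 7 loci higher in the A4-labelled libraries and 0 in A9 by limma (2 higher and 1 lower at an unadjusted p under 0.05). Of the 5, 4 were near-copies of a phytochrome A gene and the other, XLOC_055359, also chosen after its values were seen, was a phytochrome A-associated F-box protein and no receptor. XLOC_031772 of that gene, chosen likewise, was at 5.52, 6.84 and 7.04 FPKM in the A4-labelled libraries, 4.13, 4.59 and 4.83 FPKM in A9 and 3.88, 3.19 and 3.97 FPKM in WT. Cryptochromes, blue light receptors, had 1 of 20 loci higher and 3 lower in the A4 group (5% and 15%), and 1 higher and 2 lower in A9 (5% and 10%), where the lower shares were near those of all loci. Their median log2 change was 0.19 in the A4 group and -0.27 in A9, and 6 of the 20 were higher and 0 lower in the A4-labelled libraries than in A9 (13 and 0 at limma's unadjusted p under 0.05). Cryptochrome XLOC_087231 was at 15.2, 19.0 and 14.4 FPKM in the A4-labelled libraries, 15.7, 14.4 and 13.9 FPKM in A9 and 28.1, 28.9 and 30.2 FPKM in WT, below WT in both lines (-0.82, adjusted p = 0.000641, and -0.94, adjusted p = 0.000469). COP1 and SPA loci, the ligase that removes HY5, had 0 of 28 called in the A4 group by limma (2 higher and 6 lower at an unadjusted p under 0.05) and 1 lower in A9. Between the lines, 6 were lower and 1 higher in the A4-labelled libraries (21.4% and 3.57%). At limma's unadjusted p under 0.05 these were 6 and 5. The median log2 difference of the list, A4 minus A9, was 0.15, so it did not move in a single direction. The FLOWERING LOCUS T and SELF PRUNING family had 2 of 6 loci lower in the A4 group (33.3%) and 1 in A9 (16.7%), and casein kinase II, which phosphorylates LHY and CCA1 in Arabidopsis, had 4 of 19 higher in the A4 group (21.1%) and 1 lower in A9 (5.26%). No tested locus was named a phytochrome interacting factor, and none was named phototropin, REVEILLE, LUX ARRHYTHMO, LNK or cyclic dof factor.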

How the data were processed

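RNA of 9 corolla libraries was sequenced, 3 each of A4, A9 and wild type (WT). FPKM values were deposited by the authors, a column per library; per the submitters' processing notes, FastQC 0.11.2 and Bowtie2 2.2.6 were used. Assembly, quantification and any scaling of the FPKM are steps not given in the sources used here. The authors also deposited a table of tomato protein matches, which holds, per the file headers, an identity in percent, an e-value and match scores. No genome was used, so no positions or sequences are given.

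Low values of loci between 700 and 2000 bases gave the depth: of those up to about 4 fragments, 100% were within 0.1 of whole numbers. FPKM are not counts, so no count model was run. The fit used limma 3.58.1 (R 4.3.3, trended prior) on log2(FPKM + 1), with 3 group means and all loci whose mean reached 1 FPKM. A locus was called where the Benjamini-Hochberg adjusted p was under 0.05. The fit was tested on simulated data. The members and lists were chosen with earlier results of these data known. Nothing states that replicates are separate plants, so p-values reflect only the spread between these libraries, possibly a technical one. In each role class the 3 most abundant loci and the 3 with the lowest p of each contrast were named, 1 locus an assembled gene, and in the further lists the 2 loci of smallest p when both lines were averaged against WT; any other locus was chosen after its values were seen.

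Replicate numbers are shared between groups. Correlations of the deviations of same-numbered libraries were 0.248, 0.344 and 0.104 for A9 with WT. They were 0.240, 0.261 and 0.249 for A4 with A9 and 0.229, 0.192 and -0.125 for A4 with WT. Among differently numbered libraries, A9 replicate 1 with WT replicate 3 gave 0.117 and A4 replicate 3 with WT replicate 2 gave 0.231. No label states a pairing, and these values do not settle it. The main fit paired no samples, and the replicate number entered only as a block in an alternative, for all comparisons. Alternatives were the pseudocount, filters, scaling, prior, block, 2-group fits, summed loci and leaving out each library.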

Additional observations from a re-analysis of the deposited data

Results flagged for a closer look

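At 15 named loci the change against WT differed between the lines by the direct test of the A4-labelled libraries against A9. Some of these loci were named for their low p in that same comparison, so their number is fixed in part by the choice and says nothing of the members, and 18% of all loci tested were called in it. LHY XLOC_090666, PRR7 XLOC_014536 and XLOC_040080 reached the 1 FPKM minimum through the A4-labelled libraries alone. Their tests are therefore those with no filter on low values, given above, in which each was called. Values are log2 differences of FPKM + 1, A4 minus A9. Higher in the A4-labelled libraries were XLOC_040080 (2.12), XLOC_060475 (1.89), PRR7 XLOC_014536 (1.75), LHY XLOC_090666 (1.70), XLOC_040084 (0.99), ELF3 XLOC_020510 (0.85), XLOC_044869 (0.75), XLOC_049630 (0.75), XLOC_061950 (0.75) and ZGT XLOC_012147 (0.42). Lower there were XLOC_007309 (-1.32), XLOC_007308 (-1.20), XLOC_007313 (-1.02), XLOC_040075 (-0.49) and XLOC_088373 (-0.33). The calls of XLOC_012147, XLOC_040075 and XLOC_088373 were lost in 6, 4 and 9 of 17 alternatives run on loci. With FPKM summed per assembled gene, the differences of XLOC_061950 (0.18) and XLOC_012147 (0.40) were not called. The groups of 3 libraries are too small for a test of single libraries standing apart.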

How the results depend on the processing

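The counts of called members (86, 49, 86 and 45 for A4 with WT, A9 with WT, the mean of both lines with WT and A4 with A9) fell to 46, 16, 32 and 22 under a minimum mean of 5 FPKM, where 87 members were tested. At that minimum 38.4%, 23.8%, 34.7% and 21.7% of all loci were called, so the A9 count was no larger than the share of all loci. With FPKM summed per tomato protein (39 tested) they were 22, 16, 18 and 10, and per assembled gene (63 tested) 33, 18, 32 and 21, since fewer features entered. Of all tomato proteins 40.6%, 26.7%, 37.1% and 25.5% were called, and of all assembled genes 35%, 22.6%, 32.6% and 21.3%. Leaving out each library in turn gave 53 to 80, 26 to 48, 55 to 80 and 36 to 46. The lowest were without WT replicate 3 (53, 26 and 55), and A4 with WT gave 57 without WT replicate 1 and A9 with WT 31 without A9 replicate 3. The shares of all loci called fell too, to 23.8%, 12.4% and 20% without WT replicate 3. They were 24.9% for A4 with WT without WT replicate 1 and 12.8% for A9 with WT without A9 replicate 3. The cause was not tested. Every other alternative stayed within 1.5 times. With the replicate number as a block they were 95, 58, 95 and 53, beside 34.7%, 22.1%, 31.8% and 20.9% of all loci. The block changed the calls of XLOC_007309 (A9 with WT) and XLOC_020529 (A4 with A9), as given above, and no other call of a named locus in these 2 comparisons. In A4 with WT it added a lower call at the EARLY FLOWERING 5 locus XLOC_007837 (-0.34, adjusted p = 0.0157).

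Of 2289 alternative values of the 31 named loci, 2174 kept their call, 67 lost it, 38 gained it and 10 turned direction; 39 of those that kept it changed sign while called in neither setting. The turned values, with loci merged, were -0.31, -0.45 and -0.38 for XLOC_014536 (A4 with WT, A9 with WT, mean of both lines), -0.65 and -0.60 for XLOC_040080 (A4 with WT, mean of both lines), -0.12 for XLOC_060475 (mean of both lines) and -0.094 for XLOC_040080, XLOC_040084 and XLOC_061950 (A4 with A9), all summed per tomato protein, and -0.53 for XLOC_040080 (mean of both lines) summed per assembled gene. Depth limits LHY and PRR7 in A9 and WT, which rest on at most an estimated 32.9 fragments a library at XLOC_090666 and 22 at XLOC_014536.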
